A study of Rattus norvegicus with 8 samples.

Results

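The opioid and cannabinoid genes described here are 10 genes in all: the receptors Oprm1 (mu), Oprd1 (delta), Oprk1 (kappa) and Oprl1 (nociceptin), the peptide precursor genes Penk, Pdyn, Pomc and Pnoc, and the cannabinoid receptors Cnr1 and Cnr2. They were chosen by name, as probe sets of the array that carry 1 of these gene symbols and no other. Each of the 10 had exactly 1 such probe set, out of 14497 genes named this way and 28826 probe sets on the array. Their RNA was measured in L5 dorsal root ganglia (DRG) of adult male Wistar rats, on the side of an L5 spinal nerve transection and 14 days after it, with 1 Affymetrix Rat Gene 1.0 ST array per sample. The HDACI group (n = 4) received MS-275, an inhibitor of class I histone deacetylases, at 30 nmol per day into the spinal fluid from an osmotic pump started before the injury, and the vehicle group (n = 4) received the solvent, dimethyl sulfoxide in saline, the same way. All 8 ganglia were injured, so no value here measures the injury itself. Values are on the log2 scale, so that a difference of 1 is a doubling.

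Opioid receptors and cannabinoid receptors are membrane proteins that act through inhibitory G proteins. In the central terminals of sensory neurons they close calcium channels and reduce transmitter release, which is one route by which morphine and cannabinoids relieve pain. Enkephalins, cut from the Penk precursor, act mainly on delta and mu receptors, dynorphins from Pdyn on kappa receptors, beta-endorphin from Pomc on mu receptors, and nociceptin from Pnoc on Oprl1. Cnr1 is found mainly on neurons and Cnr2 mainly on immune cells.

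Oprk1 was the single gene of the 10 whose groups did not overlap, and it was lower in HDACI, but it did not pass adjustment over all probe sets. The opioid peptide genes differed by no more than 0.05 in either direction. Of the 10 genes, 5 were lower and 5 were higher in HDACI, against 46.7% of all probe sets lower. The median difference was -0.01, against 0.01 over all probe sets.

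By limma, 0 of the 10 genes had an adjusted p under 0.05, as was the case for 0% of all 28826 probe sets. At an unadjusted p under 0.05 limma counted 1 of the 10 genes, against 3.55% of all probe sets. At an unadjusted p under 0.01 it was again 1 gene, against 0.555%. For 1 of the 10 genes all HDACI arrays lay below all vehicle arrays, which held for 1.09% of all probe sets, and for none did they lie above, which held for 1.01%.

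**Figure D1:**
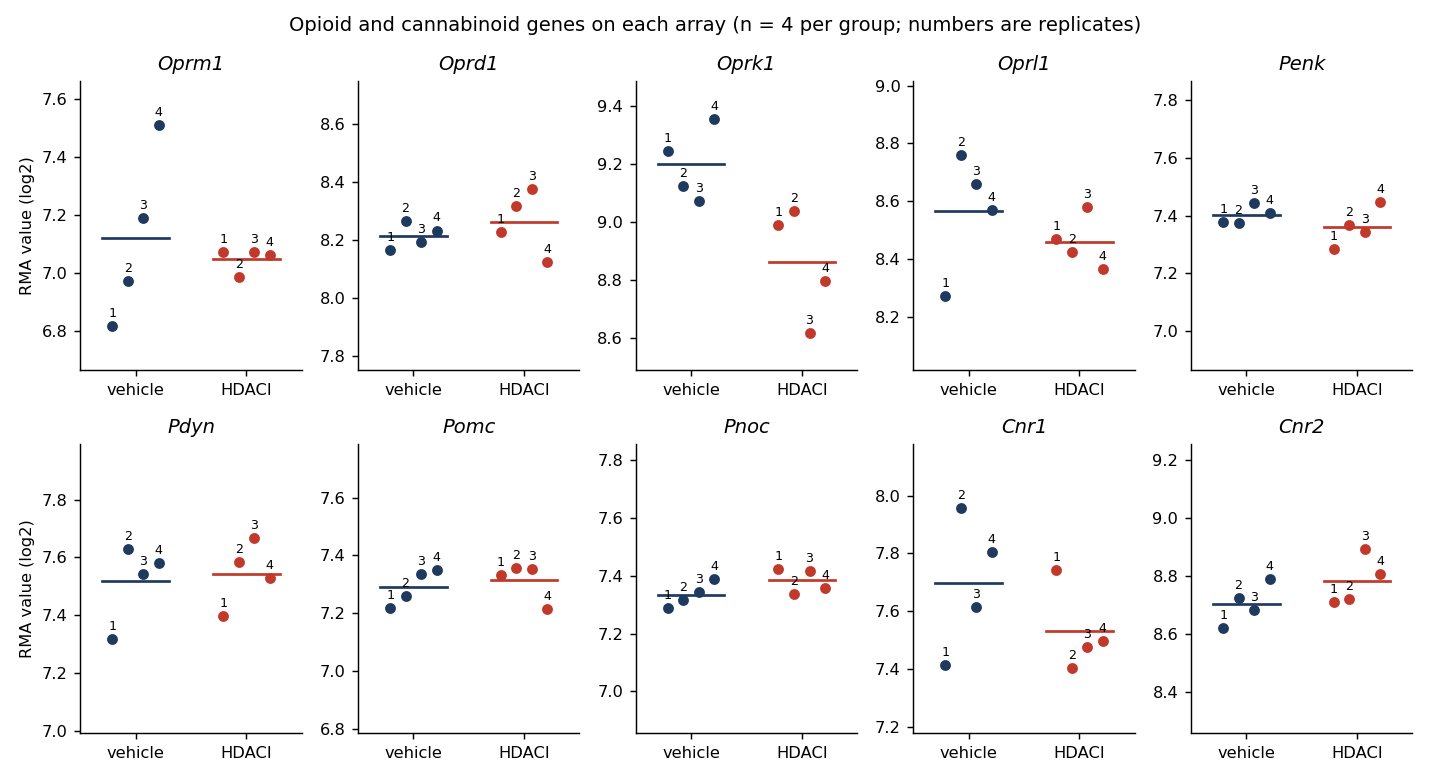
Log2 RMA values of the 10 genes are shown per array, with vehicle in dark blue, HDACI in red, replicate numbers above the points and lines for the means of n = 4. Each axis spans 1 log2 unit around the gene's own values, which are not comparable in level between genes, and Oprk1 is the one gene without overlap.

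Among the receptors, Oprk1, the receptor for dynorphins, measured 8.99, 9.04, 8.62 and 8.80 in HDACI replicates 1 to 4 and 9.24, 9.12, 9.07 and 9.36 in vehicle replicates 1 to 4. The highest HDACI array (replicate 2) lay 0.03 below the lowest vehicle array (replicate 3), so the groups only just separated. The mean was 8.86 ± 0.19 in HDACI and 9.20 ± 0.13 in vehicle (SD, n = 4 each). HDACI differed from vehicle by -0.34 ± 0.10 (log2, SE; 95% confidence interval -0.57 to -0.11), which is a vehicle level 1.26 times that of HDACI. An exact permutation test of the 4 against 4 arrays gave a two-sided p of 0.0286, the smallest that 70 relabellings allow. The limma p ranked 145th of 28826 before adjustment, and the limma adjusted p was 0.9998. In a bulk ganglion, fewer cells that express a gene and less of its RNA per cell cannot be told apart.

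The Oprk1 difference had the same sign in all 19 other settings tried, and the unadjusted p was under 0.05 in 18 of them. Some of these settings cannot change the estimate, so its sign there (-0.34) was fixed in advance. They are the replicate block, the filter on dim probe sets, the intensity trend and the mean over probe sets. With 1 array left out it ranged from -0.40 without HDACI replicate 2 to -0.26 without HDACI replicate 3. It was smaller by a factor of just over 1.5 when noisier arrays were given less weight (-0.23 ± 0.10, SE). With a score of sensory neuron markers as a covariate it was -0.35, and with a score of nociceptor markers -0.30.

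The signal of skeletal muscle genes was high in 3 of the 4 vehicle arrays. A score over 14 measured muscle markers, each centred on its mean over the 8 arrays, was 2.62, 1.35, -1.06 and 0.67 in vehicle replicates 1 to 4 and lay between -1.15 and -0.78 in HDACI. The groups overlapped in it (exact permutation p = 0.114, two-sided), but all 14 markers were lower in HDACI, against 46.7% of all probe sets. Limma counted 13 of the 14 at an unadjusted p under 0.05, against 1.93% of all probe sets lower at this threshold. Of the 14, 0 passed adjustment. Over the 8 arrays Oprk1 had an r of 0.64 with this score (exact permutation p = 0.0875, adjusted 0.538 over the 10 genes) and a rho of 0.62 (exact permutation p = 0.115, adjusted 0.977), and without vehicle replicates 1 and 2 r was 0.69 (exact permutation p = 0.169). With this score as a covariate Oprk1 differed by -0.27 ± 0.14 (SE), and limma no longer counted it at an unadjusted p under 0.05. Without vehicle replicates 1 and 2, the arrays highest in muscle signal, it differed by -0.35. Vehicle replicate 3 had a muscle score within the HDACI range, and its Oprk1 value, 9.07, was the lowest of the vehicle group and 0.03 above the highest HDACI array.

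**Figure D2:**
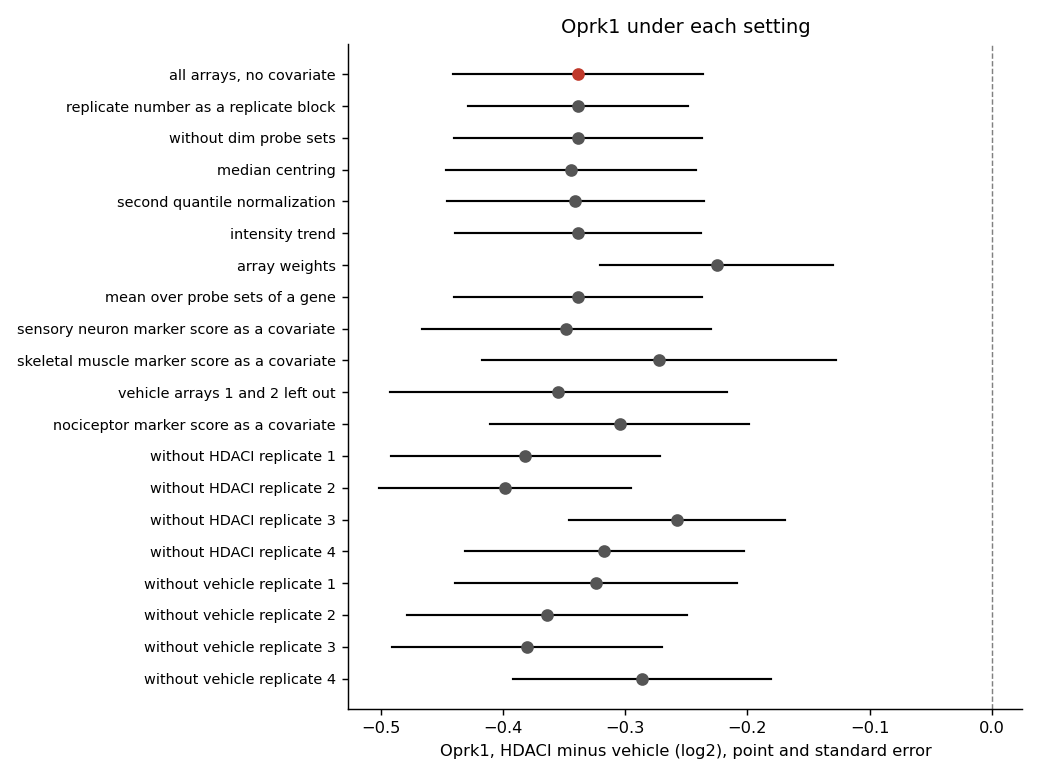
The difference of Oprk1 between HDACI and vehicle (log2, horizontal axis) is shown for each setting, with bars of 1 standard error. All points lie below 0, from -0.40 to -0.23, and the fit with the muscle score has a wide bar (SE 0.14).

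Oprm1, the receptor for morphine, differed in its spread. It measured 7.07, 6.99, 7.07 and 7.06 in HDACI replicates 1 to 4, but 6.82, 6.97, 7.19 and 7.51 in vehicle replicates 1 to 4. The vehicle arrays thus held both the lowest and the highest of the 8 values, on both sides of the HDACI arrays. Oprm1 had the lowest mean value of the 10 genes, 7.09, and whether its RNA was above background was not measured. The SD was 0.04 in HDACI and 0.30 in vehicle, a ratio of 7.31, where the median SD of all probe sets was 0.09 and 0.10. This difference in spread was not tested. All measured nociceptor markers but Gfra2 also had a larger SD in vehicle, such as Scn10a (0.12 in HDACI and 0.79 in vehicle). This was not particular to nociceptor markers. It also held for all sensory neuron markers but Nefl and Stmn2, such as Rbfox3 (0.06 and 0.30). All measured muscle markers showed it too, such as Acta1 (0.38 and 1.65). The share of all probe sets with a larger SD in vehicle was not counted. The Oprm1 means, 7.05 and 7.12, differed by -0.07 ± 0.13 (SE; exact permutation p = 0.714, two-sided), and the difference had the opposite sign, 0.06, without vehicle replicate 4. It was -0.30 without vehicle replicates 1 and 2, where limma counted it at an unadjusted p under 0.05, and -0.28 with the muscle score as a covariate.

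Oprd1, the main receptor for enkephalins, measured 8.23, 8.32, 8.37 and 8.12 in HDACI and 8.17, 8.27, 8.19 and 8.23 in vehicle. All vehicle values lay inside the HDACI range. The means differed by 0.05 ± 0.06 (SE; 95% confidence interval -0.09 to 0.18). The difference was 0.0085 without HDACI replicate 3 and 0.09 without HDACI replicate 4.

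Oprl1, the receptor for nociceptin, measured 8.47, 8.42, 8.58 and 8.37 in HDACI and 8.27, 8.76, 8.66 and 8.57 in vehicle. Vehicle replicate 1 was the lowest of all arrays, and the other vehicle arrays were among the 4 highest. The difference was -0.11 ± 0.10 (SE; exact permutation p = 0.400, two-sided). It was -0.20 without vehicle replicate 1, where limma counted it at an unadjusted p under 0.05, and -0.04 without vehicle replicate 2.

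The peptide precursor genes all differed by 0.05 or less. Penk, the enkephalin precursor, measured 7.28, 7.37, 7.35 and 7.45 in HDACI and 7.38, 7.37, 7.44 and 7.41 in vehicle, so that all vehicle arrays lay inside the HDACI range. Pdyn, the dynorphin precursor, measured 7.40, 7.58, 7.67 and 7.53 in HDACI and 7.32, 7.63, 7.54 and 7.58 in vehicle, with the lowest array of each group being its replicate 1. Neither gene separated the groups: Penk differed by -0.04 ± 0.05 and Pdyn by 0.03 ± 0.08 (SE).

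Pomc, which encodes beta-endorphin along with corticotropin and melanotropins, measured 7.33, 7.36, 7.35 and 7.21 in HDACI and 7.22, 7.26, 7.34 and 7.35 in vehicle. Pnoc, the nociceptin precursor, measured 7.43, 7.34, 7.42 and 7.36 in HDACI and 7.29, 7.32, 7.34 and 7.39 in vehicle. For both genes the ranges overlapped, and Pomc differed by 0.02 ± 0.05 and Pnoc by 0.05 ± 0.04 (SE). The 95% confidence intervals allowed at most a 1.11-fold change of Penk, a 1.16-fold change of Pdyn, a 1.11-fold change of Pomc and a 1.11-fold change of Pnoc in either direction. These limits hold for array values, which compress changes of dim probe sets. The table holds no detection calls, so whether the RNAs of these 4 genes, or of the other genes described, were above background was not measured.

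Cnr1, the neuronal cannabinoid receptor, measured 7.74, 7.40, 7.48 and 7.50 in HDACI and 7.42, 7.96, 7.61 and 7.80 in vehicle. HDACI replicate 1 and vehicle replicate 1 each lay within the other group's range, while the remaining HDACI arrays lay below the remaining vehicle arrays. The difference was -0.17 ± 0.12 (SE; exact permutation p = 0.286, two-sided). It was -0.26 without vehicle replicate 1, where limma counted it at an unadjusted p under 0.05, and -0.08 without vehicle replicate 2, and -0.05 with the sensory neuron score as a covariate.

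Cnr2, the receptor of immune cells, measured 8.71, 8.72, 8.89 and 8.81 in HDACI and 8.62, 8.72, 8.68 and 8.79 in vehicle. The groups overlapped, and the difference of 0.08 ± 0.06 (SE; 95% confidence interval -0.06 to 0.21) was the largest positive difference among the 10 genes. Without HDACI replicate 3, the array with the highest value, it was 0.04. A score over 12 macrophage markers was -0.17, -0.14, 0.06 and 0.49 in HDACI replicates 1 to 4 and lay between -0.15 and 0.11 in vehicle. It did not separate the groups (exact permutation p = 0.686, two-sided). All 12 markers had a higher mean in HDACI, where 46.7% of all probe sets were lower. The part of this score in the Cnr2 values was not tested.

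**Figure D3:**
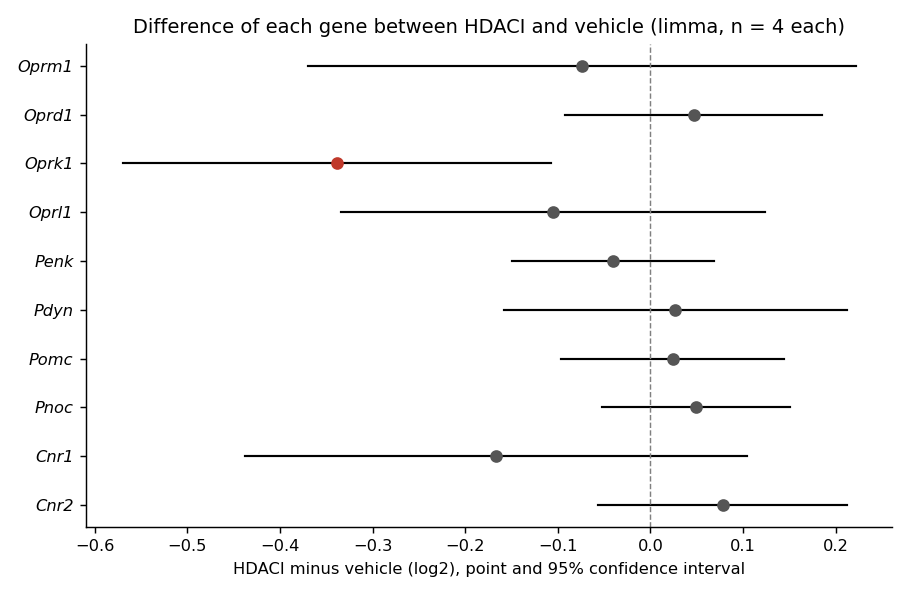
Points give the difference of each gene, HDACI minus vehicle on the log2 scale, and lines give the 95% confidence interval of the limma fit with n = 4 per group. The interval holds 0 for 9 of the 10 genes, and for Oprk1, in red, it runs from -0.57 to -0.11 before adjustment for multiple tests.

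Since the ganglion is a mixed tissue, each gene was set against marker scores over the 8 arrays. All 20 listed sensory neuron markers had a probe set, with mean levels from 9.24 (Isl1) to 13.48 (Map1b). Of the 20, 18 were lower in HDACI, against 46.7% of all probe sets. Their score lay between -0.10 and -0.01 in HDACI and was -0.13, 0.12, 0.07 and 0.08 in vehicle replicates 1 to 4, so vehicle replicate 1 was lowest in neuronal signal and the other vehicle arrays were highest. The score over 11 measured nociceptor markers was between -0.10 and -0.04 in HDACI and -0.25, -0.08, 0.02 and 0.63 in vehicle, with vehicle replicate 4 far above the rest. Neither score separated the groups (exact permutation p = 0.314 and 0.657, two-sided).

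Oprl1 followed the sensory neuron score over the 8 arrays. Pearson's r was 0.94 (exact permutation p = 0.000868, two-sided; 0.00868 adjusted over the 10 genes and 0.0260 over all 30 relations with 3 scores), and Spearman's rho was 0.88 (exact permutation p = 0.00724, adjusted 0.0536). Without vehicle replicates 1 and 2, the arrays farthest from the median score, r was 0.84 (exact permutation p = 0.0431, not adjusted). With this score as a covariate the difference of Oprl1 between HDACI and vehicle was 0.02, against -0.11 without it.

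Cnr1 had the next highest r with the same score, 0.80 (exact permutation p = 0.0194, adjusted 0.0971), with a rho of 0.86 (exact permutation p = 0.0107, adjusted 0.0536). It did not pass adjustment, and without vehicle replicates 1 and 2 r was 0.62 (exact permutation p = 0.181). For Oprk1 r was 0.28 (exact permutation p = 0.504), and for Penk it was 0.04.

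Oprm1 followed the nociceptor score instead, with an r of 0.95 (exact permutation p = 0.00226, adjusted 0.0226 over the 10 genes and 0.0339 over all 30 relations) and a rho of 0.74 (exact permutation p = 0.0458, adjusted 0.229). This relation rested on vehicle replicates 1 and 4, the lowest and highest arrays for both measures. Without them r was 0.60 (exact permutation p = 0.221). With the nociceptor score as a covariate, chosen after the values were seen, Oprm1 differed by 0.04 between HDACI and vehicle.

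**Figure D4:**
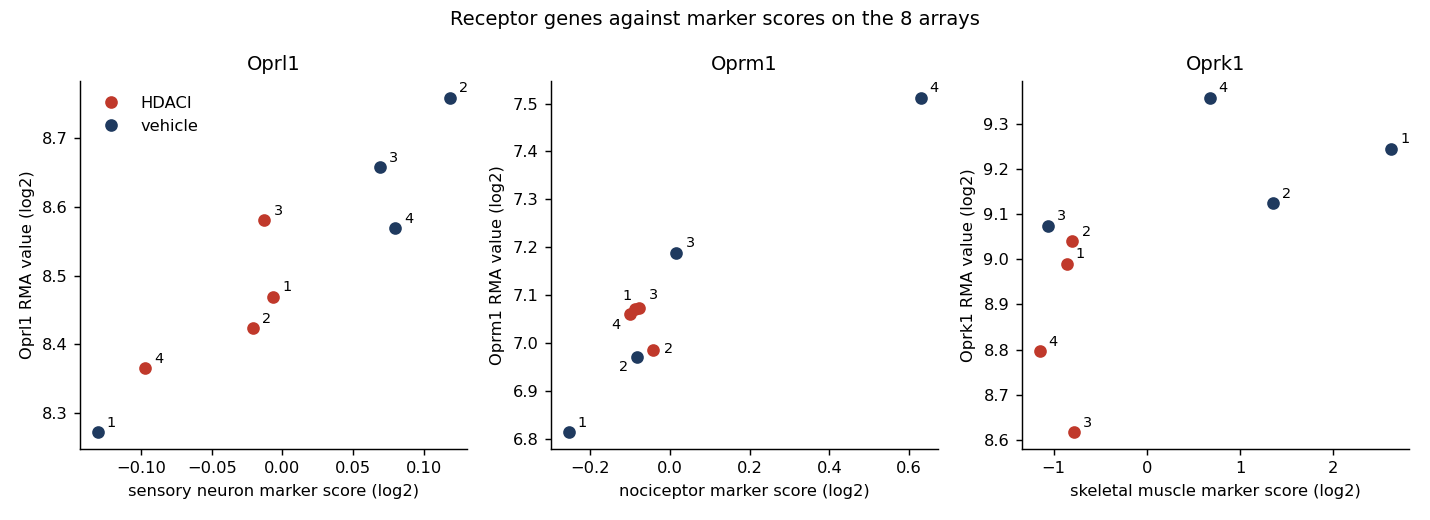
Log2 values of Oprl1, Oprm1 and Oprk1 (vertical axes) are plotted against the sensory neuron, nociceptor and skeletal muscle scores of the 8 arrays, with HDACI in red, vehicle in dark blue and replicate numbers beside the points. Oprl1 lies along a line (r = 0.94), and Oprm1 has vehicle replicate 4 apart at the upper right. Vehicle replicate 3 is the lowest vehicle array in both muscle signal and Oprk1. It lies among the HDACI arrays in muscle signal and 0.03 above the highest of them in Oprk1.

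Among 14496 other genes with 1 symbol, those whose values were most like each of 4 receptors over the 8 arrays are named as a description. For Oprk1 they were Hibadh, an enzyme of valine breakdown (r = 0.93), the deubiquitinase Usp9x (r = 0.93) and Rhoxl (r = 0.93). For Oprm1 they were the stress kinase Map3k13 (r = 0.99), Anxa10 (r = 0.97) and B3gnt4 (r = 0.97). For Oprd1 they were Tmem269 (r = 0.98), Snorc (r = 0.97) and the homeobox gene Barhl1 (r = 0.97), and for Cnr1 the spliceosome subunit Snrnp48 (r = 0.97), the vomeronasal receptor Vom2r47 (r = 0.96) and the olfactory receptor Or4c108 (r = 0.95). These are the highest of many correlations over only 8 arrays.

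The signalling and processing partners of these genes were listed by function, and 84 of 92 listed genes had a probe set. Of the 84, 50 were lower in HDACI, against 46.7% of all probe sets, and the median difference was -0.02. At an unadjusted p under 0.05 limma counted 5 of them, against 3.55% of all probe sets in either direction, and 0 passed adjustment. All 5 were lower, where 1.93% of all probe sets were lower at this threshold. The count was 12 without vehicle replicate 1, where 6.10% of all probe sets were counted in either direction. It was 3 without HDACI replicate 4 (3.12% of all probe sets) and 3 without vehicle replicate 2 (2.46%).

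Of the inhibitory G proteins, 5 of 10 measured genes were lower and 0 had an unadjusted p under 0.05, against 3.55% of all probe sets. Gnao1, the alpha subunit most abundant in neurons, differed by -0.11 and Gng3 by -0.11, and with the sensory neuron score as a covariate these were 0.0012 and -0.0035. With the muscle score as a covariate they were -0.26 and -0.21. Gnb5 differed by -0.05. Gnai2 differed by only 0.04 ± 0.04 (SE), and its HDACI arrays lay only just above its vehicle arrays. The lowest HDACI value was 12.9897 (replicate 2) and the highest vehicle value 12.989 (replicate 3). HDACI lay above vehicle without overlap for 1.01% of all probe sets. Among the effectors, 12 of 16 were lower, against 46.7% of all probe sets, and 0 had an unadjusted p under 0.05, against 3.55%. Lists of 10 and 16 genes are too short to read a count of 0 at that share. The N-type calcium channel Cacna1b, closed by opioid receptors in nerve terminals, differed by -0.17 ± 0.10 (SE). It was -0.05 with the neuron score and -0.37 with the muscle score as a covariate, -0.26 without vehicle replicate 1 and -0.10 without vehicle replicate 3. The P/Q-type channel Cacna1a differed by -0.12, the potassium channel Kcnj3, opened by these receptors, by -0.08, and the kinase subunit Prkaca by -0.06.

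Of the 19 measured regulators of receptor signalling, 2 had an unadjusted p under 0.05, against 3.55% of all probe sets. They were Rgs17 and Rgs7, whose proteins speed the switching off of G proteins. Rgs17 measured 8.73, 8.92, 9.01 and 8.77 in HDACI and 9.03, 9.20, 9.03 and 9.18 in vehicle. Its groups did not overlap, with a gap of 0.02, and it differed by -0.25 ± 0.08 (SE; limma adjusted p = 0.9998), with an unadjusted p under 0.05 in all 8 fits that left out 1 array. Rgs7 differed by -0.21 ± 0.09 (SE), with an unadjusted p under 0.05 in only 2 of those 8 fits. It was -0.12 with the neuron score and -0.32 with the muscle score as a covariate. Beta-arrestin 2, Arrb2, which uncouples and internalises opioid receptors, differed by -0.12 ± 0.05, and Rgs16 by 0.24 ± 0.12 (SE) in the other direction. The list as a whole had 10 of 19 genes lower and a median of -0.01.

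Of the peptide processing genes 7 of 13 were lower, with a median of -0.05. Scg5, the chaperone of the prohormone convertase Pcsk2, measured 10.15, 10.06, 10.14 and 9.90 in HDACI and 10.24, 10.32, 10.30 and 10.20 in vehicle, so all HDACI arrays lay below all vehicle arrays. It differed by -0.20 ± 0.07 (SE; limma adjusted p = 0.9998). Pcsk2 itself, which cuts the opioid precursors, differed by -0.16 ± 0.11 and the granule protein Chgb by -0.21 ± 0.12. Leaving out vehicle replicate 1 gave -0.26 for Pcsk2 and leaving out vehicle replicate 3 gave -0.09, and it was -0.02 with the neuron score and -0.36 with the muscle score as a covariate. Furin differed by 0.17 (0.05 without HDACI replicate 4).

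Of the peptidases that degrade opioid peptides, 6 of 11 were lower, with a median of -0.01. Neurolysin, Nln, measured 9.25, 9.18, 9.25 and 9.26 in HDACI and 9.40, 9.44, 9.39 and 9.33 in vehicle, with no overlap, and differed by -0.16 ± 0.04 (SE; limma adjusted p = 0.9998). Aminopeptidase N, Anpep, differed by 0.40 ± 0.26 (SE), but by 0.13 without HDACI replicate 4, where it measured 11.26 against 9.90 to 10.37 in the other HDACI arrays. Enpep differed by 0.29. Ace differed by 0.09, but by 0.03 without vehicle replicate 1 and by -0.05 with the muscle score as a covariate. With the muscle score as a covariate Rgs17 differed by -0.23, Scg5 by -0.21 and Nln by -0.14, and limma counted none of the 3 at an unadjusted p under 0.05. In the same fit it counted 4 of the 24 named pathway genes, all lower, against 4.49% of all probe sets in either direction. They were Cacna1b, Pcsk2, Gnao1 and Rgs7, of which Rgs7 alone was counted without the covariate. The 24 were named for having the smallest p of their lists on these same arrays, so their count cannot be compared with that share.

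Of the endocannabinoid genes 10 of 15 were lower, with a median of -0.03. Fabp5, which carries anandamide inside cells, differed by -0.12 ± 0.05 (SE; limma adjusted p = 0.9998), and its unadjusted p was under 0.05 in only 2 of the 8 fits that left out 1 array. Ptgs2, the cyclooxygenase that oxidises endocannabinoids and makes prostaglandins, differed by 0.60 ± 0.30 (SE), and by 0.27 without HDACI replicate 4. Gde1 differed by -0.07 and the hydrolase Abhd6 by 0.05.

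**Figure D5:**
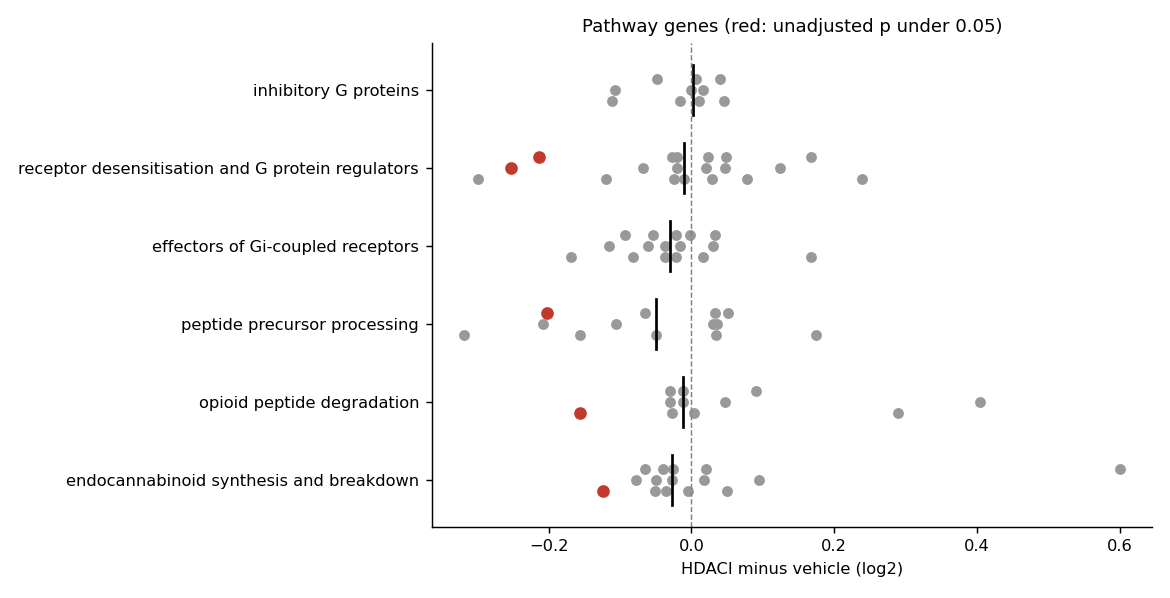
Each point is 1 of the 84 measured pathway genes, placed by its difference between HDACI and vehicle (log2), with a line at the median of each list and red for an unadjusted limma p under 0.05. The medians of the 6 lists lie between -0.05 and 0.00, and the 5 red points all lie below 0.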

How the data were processed

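Each array's deposited column holds log2 values that the authors obtained by RMA (background correction, quantile normalization and a summary per probe set) with the R package oligo. No version of it is named in the sources read. Quantile normalization gives all arrays nearly the same distribution (medians 8.13 to 8.16) and removes any shift common to most genes. Arrays have no read depth, and their number limits the precision. The 4 arrays of a group are replicates per the labels and biological replicates per the study's methods.

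Gene names came from the platform annotation, updated through Entrez gene identifiers to RefSeq symbols (GRCr8). Of 28826 probe sets, 15209 had 1 symbol, 306 several and 13311 none. Per gene the probe set with the highest mean was used. Each difference, HDACI minus vehicle, came from a limma fit (version 3.58.1, R 4.3.3), without covariates; p-values are two-sided and adjusted by Benjamini-Hochberg across the 28826 probe sets, and the fit was tested on simulated data. Marker scores are means over markers of log2 values centred on all arrays. Relations were tested by exact permutation over all pairings.

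Members and lists were chosen with earlier results of these data known. Named were the 10 members, up to 4 genes with the smallest p per pathway list, and the 3 genes most correlated with Oprk1, Oprm1, Oprd1 and Cnr1. All 10 members passed a filter at the 30th percentile of mean level.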

Additional observations from a re-analysis of the deposited data

Results flagged for a closer look

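In 6 of 84 sets of 4 arrays (10 genes, 24 pathway genes and 8 marker scores, in each group), 1 array lay far from the other 3. Chance flags about 1 in 20 sets, and all 6 were in the HDACI group. Oprm1 measured 6.99 in HDACI replicate 2 against 7.06 to 7.07 in the others, a gap that is large only because these 3 lie so close together. Likewise Nln measured 9.18 in HDACI replicate 2 against 9.25 to 9.26, and Abhd6 10.69 against 10.80 to 10.81. HDACI replicate 4 stood apart in the remaining 3 cases. Gnb5 measured 10.21 there against 10.38 to 10.40, the sensory neuron marker score was -0.10 against -0.02 to -0.01, and Ptgs2 measured 9.01 against 7.65 to 7.69. The macrophage score was also highest in this array, at 0.49, and its part in these values was not tested.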

How the results depend on the processing

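No difference of the 10 genes passed an adjusted p of 0.05 by limma in any setting, and in each setting 0 probe sets of the whole array passed. The sign of Oprk1, Oprd1, Penk, Pnoc, Cnr1 and Cnr2 was the same in all settings run, some of which cannot change the estimate. Oprm1 changed sign with the sensory neuron score (0.018) or the nociceptor score (0.042; chosen after seeing the data) as a covariate, and ranged from -0.18 to 0.056 when 1 array was left out. Oprl1 was 0.017 with the sensory neuron score. Pdyn was -0.0074 with array weights, -0.058 with the muscle score, -0.017 without vehicle replicates 1 and 2, and from -0.039 to 0.076 with 1 array left out. Pomc was -0.0293 with the muscle score, -0.0293 without vehicle replicates 1 and 2, and from -0.00074 to 0.057 with 1 array left out. The cause of these changes was not tested. The number of the 10 genes at an unadjusted p under 0.05 was 1 in most settings and 0 with the muscle score. It was 2 (Oprm1 and Oprk1) without vehicle replicates 1 and 2, where 4.80% of all probe sets were counted. With 1 array left out it was from 1 to 3. The 3 were Oprk1, Oprl1 and Cnr1, without vehicle replicate 1, where 6.10% of all probe sets were counted. The median difference of the 10 genes was -0.070 with the muscle score. The count of pathway genes was lowest, 3, without HDACI replicate 4 or vehicle replicate 2 (3.12% and 2.46% of all probe sets). It was highest, 12, without vehicle replicate 1 (6.10%). The r of Oprl1 was 0.32 with the nociceptor score and -0.12 with the muscle score (added after seeing the data) in place of the sensory neuron score, and that of Oprm1 was 0.95 with the nociceptor score. Same-numbered arrays of the groups did not deviate together (correlations -0.28 to 0.01). These correlations gave no sign that the numbers pair the arrays, but so few cannot exclude it. With the replicate number as a replicate block the Oprk1 difference, -0.34, could not change, and the same 1 gene had an unadjusted p under 0.05. Taking the mean over a gene's probe sets left the 10 genes' values as they were, since each has 1 probe set.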

Other observations

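No single array was the highest or the lowest for all 10 genes. Vehicle replicate 1 held the lowest of the 8 values for 5 of them (Oprm1, Oprl1, Pdyn, Pnoc and Cnr2) and the highest for 0. The share of all probe sets that were lowest on this array was not counted, so the 5 cannot be read as particular to these genes. The same array had the lowest array weight (0.52), the highest muscle score (2.62) and the lowest sensory neuron score (-0.13). HDACI replicate 3 held the highest value for 3 (Oprd1, Pdyn and Cnr2), and vehicle replicates 2 and 4 for 2 each.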
